A study of Mus musculus with 24 samples.

Results

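The genes described here encode the proteins of the mitochondrial ribosome. They are the protein-coding genes of the islet table whose symbol starts with Mrpl or Mrps followed by a digit. The rule found 78 of 21859 protein-coding genes, 49 named for the large subunit (Mrpl) and 29 for the small subunit (Mrps). The cells were dispersed islet cells of wild type mice, the insulin-secreting and other hormone cells of the pancreas taken apart into single cells. They were transfected with 50 pmol of an antisense oligonucleotide (ASO), either a control (Ctr) or an inhibitor of the tRNA fragment 5'tRF-Glu(CTC) (αGlu). They then received 0.5 mM palmitate (PA) bound to BSA, or 0.75% BSA alone, for 48 h. The ASO and the fatty acid thus define 4 groups, called Ctr BSA, αGlu BSA, Ctr PA and αGlu PA, with 6 mRNA libraries each, 3 in batch 1 (S1 to S12) and 3 in batch 2 (S13 to S24). All 4 groups share the transfection and the BSA carrier, and none was left untransfected. The study's methods give C57BL/6 mice of both sexes, and for primary cells a different animal per replicate. By this statement the 4 groups are matched by replicate. The labels give no age and do not say what a batch is or which libraries share an animal, so libraries were treated as unpaired. Differences between animals within a batch thus remain in the spread of every comparison of groups.

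The mitochondrial ribosome translates the few mRNAs of mitochondrial DNA, all of which encode membrane subunits of the oxidative phosphorylation complexes. Its rRNAs are made inside the mitochondrion, whereas all of its proteins are encoded in the nucleus, translated in the cytosol and imported. Some of these proteins descend from bacterial ribosomal proteins and others exist only in mitochondria. In beta-cells, oxidative phosphorylation supplies the ATP that couples glucose to insulin secretion.

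The oligonucleotide that separates the αGlu from the Ctr groups is shown with the tRNA sequence it was designed against, both 5′ to 3′, since it defines the treatment. The target is a small RNA that mRNA libraries do not measure, so the inhibition itself could not be checked here.
αGlu ASO: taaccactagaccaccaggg
targeted stretch of tRNA-Glu(CTC): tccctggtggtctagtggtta

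The promoters of the large and the small subunit gene with the smallest p in the palmitate comparison of Ctr cells are shown because both genes rose in both ASO groups. They are RefSeq windows on GRCm38.p6 that run 5′ to 3′ from 250 bases before the transcription start to 50 bases after it. The Mrpl10 window covers chr11:97041332-97041631 on the plus strand, and the Mrps18b window covers chr17:35916391-35916690 on the minus strand. Capitals mark a match to the core of the NRF1 motif, GCGCATGC, on either strand. NRF1 is a nuclear factor known to bind promoters of mitochondrial genes.
Mrpl10: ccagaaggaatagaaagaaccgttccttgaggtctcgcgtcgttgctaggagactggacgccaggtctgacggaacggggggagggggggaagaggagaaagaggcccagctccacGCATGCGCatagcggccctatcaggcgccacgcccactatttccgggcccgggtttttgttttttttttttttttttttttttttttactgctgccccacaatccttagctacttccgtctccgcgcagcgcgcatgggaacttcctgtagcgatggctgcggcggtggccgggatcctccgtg
Mrps18b: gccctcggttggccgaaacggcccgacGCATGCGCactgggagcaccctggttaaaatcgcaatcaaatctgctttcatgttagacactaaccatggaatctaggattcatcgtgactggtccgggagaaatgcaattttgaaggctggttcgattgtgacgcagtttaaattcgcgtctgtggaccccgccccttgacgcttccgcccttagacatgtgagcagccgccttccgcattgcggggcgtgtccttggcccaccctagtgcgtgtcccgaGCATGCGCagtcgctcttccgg

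RefSeq windows were found for 69 of the 78 genes. The NRF1 core was present in a window of 8 of those 69 genes (11.6%), against 824 of all 27025 genes with a window (3.05%). By subunit these were 7 of 43 large (16.3%) and 1 of 26 small subunit genes (3.85%), the latter being Mrps18b. The ETS core bound by GABPA, CCGGAAGT, was present in 12 members (17.4%) against 4.31% of all genes. The YY1 motif, AAGATGGC, was also present in 12 members (17.4%) against 3.19% of all genes. At least 1 of the 3 motifs, which were searched on both strands, was found in 29 members (42%) against 9.91% of all genes. Among the 19 members with a window that rose with PA in Ctr cells, 3 held the NRF1 core, 3 the ETS core and 4 the YY1 motif, whereas 5, 9 and 8 of the other 50 members did. These shares describe letters in the windows and were not tested.

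The 78 genes lay on 17 chromosomes in the GENCODE M21 annotation of GRCm38, matched by Ensembl identifier. The start of another protein-coding gene on the opposite strand lay within 1000 bases of the start of 33 members (42.3%), against 10.9% of all 21951 protein-coding genes. Mrpl46 and Mrps11, on chromosome 7, are such a pair within the list. Mrps12 lay head to head with Sars2, the mitochondrial seryl-tRNA synthetase, Mrpl36 with Ndufs6 and Mrpl47 with Ndufb5, which both encode subunits of respiratory complex I. Exons of 8 members overlapped an exon of another gene on the same strand, so that shared reads could not be told apart. Exons of 28 members overlapped one on the opposite strand. The annotation also names 5 pseudogenes of these genes, and reads that match both copies are uncertain.

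All 78 members passed the filter on low counts, with no library below 91 counts for any of them. The deposited TPM scale is per annotated exon length of a gene. On it the mean levels of the large subunit genes in Ctr BSA ran from 5.99 to 66.7, with a median of 22.9. Those of the small subunit genes ran from 3.82 to 92.9 with a median of 15.1. The ratio of the highest to the lowest TPM was thus 11.1 in the large and 24.3 in the small subunit. These ratios depend on that length as well as on counts. Exons of Mrps21 and Mrps25 covered 739 and 6576 bases in GENCODE M21, and median counts over the 24 libraries were 698 and 267. For Mrpl10 and Mrpl15 these were 1708 and 8487 bases and 1240 and 550 counts.

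The highest small subunit gene was Mrps21 at 92.9 ± 11.2 TPM (SD, n = 6), followed by Mrps23 at 69.6 ± 9.08 and Mrps33 at 64.1 ± 9.05. These last 2 differed by less than their spread. The highest large subunit genes were Mrpl10 at 66.7 ± 10.6 TPM, part of the stalk that recruits translation factors, Mrpl24 at 55 ± 7.75 and Mrpl2 at 45.8 ± 4.14, a core protein near the catalytic centre. At the low end lay Mrps25 at 3.82 ± 0.937 TPM, Mrps35 at 4.75 ± 0.390 and, in the large subunit, Mrpl15 at 5.99 ± 1.15, Mrpl13 at 6.28 ± 0.817 and Mrpl48 at 6.43 ± 0.727. Neighbours at the low end of the large subunit overlapped within their SDs.

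**Figure D1:**
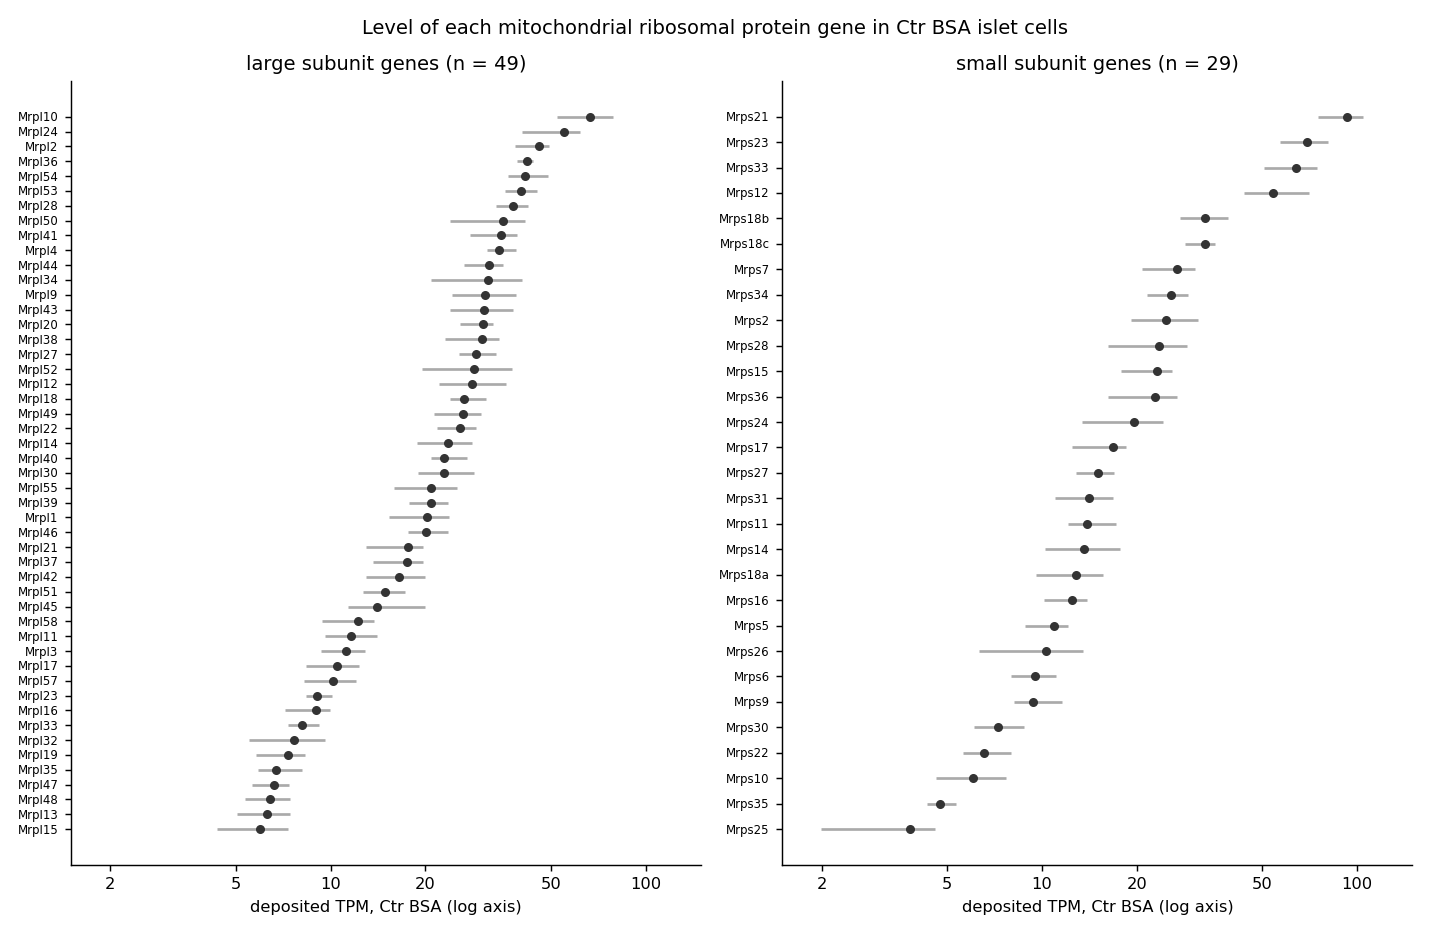
Level of each gene in the 6 Ctr BSA libraries on a log axis of deposited TPM, large subunit at left and small subunit at right. Points are means and bars span the lowest to the highest library. Mrps21 tops the small subunit at 92.9 and Mrps25 ends it at 3.82.

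Within a gene the members varied little between libraries. The coefficient of variation over all 24 libraries, on the CPM scale (counts relative to the library total, with TMM scaling), had a median of 12.6% for the large and 12.5% for the small subunit. It was 17.7% over all 15916 genes tested and 14.8% over the 6741 genes within the members' range of CPM. The steadiest member was Mrps17 at 4.69%, and the most variable was Mrps12 at 23.1%.

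Read totals ran from 18214719 to 35001979 counts, and batch accounted for 66.1% of the first principal component. Library S1 (Ctr BSA) had the lowest total and the highest mean of the large subunit genes in its group, 4.28 on the log2 CPM scale against 4.0 to 4.09 in the other 5 libraries. Its TMM factor of 0.853 was the lowest in the group, and without that scaling S1 ranked low, with 0.0877% of its counts on these genes against 0.0861% to 0.0944% in the others. Library S23 had the lowest mean among the Ctr PA libraries, 4.0, and also the lowest share of counts, 0.0855% against 0.101% to 0.108%. Results of the Ctr groups are therefore also given without both libraries, an alternative chosen after these values were seen. With the highest Ctr BSA and the lowest Ctr PA mean gone, a larger PA response in Ctr cells follows from the choice. The difference of the PA response between αGlu and Ctr cells falls for the same reason, so this alternative checks neither result.

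PA raised mitochondrial ribosomal protein genes in Ctr cells, by small amounts. Of the 49 large subunit genes, 13 rose and 0 fell at a Benjamini-Hochberg adjusted p below 0.05 in edgeR's quasi-likelihood test. Of the 29 small subunit genes, 9 rose and 0 fell. Over all genes tested, 15.5% were called raised and 14.5% lowered, against 26.5% raised in the large and 31% raised in the small subunit. At an unadjusted p below 0.05, 16 large and 10 small subunit genes were higher and 0 of either lower, beside 21% higher and 19.6% lower over all genes. The median log2 fold change was 0.12 over the large subunit genes, with 37 of 49 positive, and 0.07 over the small subunit genes, with 20 of 29 positive, beside 0.01 over all genes, of which 51.1% were positive. A change above 2-fold was reached by 0 members and, at an unadjusted p below 0.05, by 5.91% of all genes. Without S1 and S23, 20 large and 12 small subunit genes rose, and the medians were 0.20 and 0.12, while the share of all genes called raised went to 18%. The choice of these libraries favours this direction for the members.

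In the small subunit, Mrps18b (mS40), a mitochondrial branch of the bacterial S18 family, lay at 22.8, 25.9 and 27.8 CPM (lowest, median and highest library) in Ctr BSA and at 30.3, 34.3 and 36.3 CPM in Ctr PA. The groups did not overlap, as was the case for 2.97% of all genes in the raised direction. Its log2 fold change was 0.41 ± 0.07 (SE) with an adjusted p of 9.65e-05. Within batches it was 0.29 in batch 1 and 0.54 in batch 2.

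Mrps33, a small mitochondrion-specific protein, lay at 32.7, 40.6 and 44.3 CPM in Ctr BSA and at 45.5, 47.4 and 52.3 CPM in Ctr PA, again without overlap. Its log2 fold change was 0.29 ± 0.05 with an adjusted p of 0.000134. It was called in either batch alone, at 0.33 in batch 1 and 0.23 in batch 2.

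Mrps28 encodes bS1m, the mitochondrial relative of bacterial S1, and had the largest fold change of all 78 genes in this comparison. Its libraries lay at 4.46, 7.24 and 8.04 CPM in Ctr BSA and at 8.41, 9.67 and 12.3 CPM in Ctr PA. Every Ctr PA library was above every Ctr BSA library, although the gap between the groups was narrow. The log2 fold change was 0.58 ± 0.11, a fold of 1.5, with an adjusted p of 0.000341.

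Mrps14, a descendant of bacterial S14, lay at 13.9, 16 and 21.4 CPM in Ctr BSA and at 16.8, 21.1 and 24.4 CPM in Ctr PA. These ranges overlapped in part, and batch 2 was higher than batch 1 in both groups. With batch in the fit the log2 fold change was 0.36 ± 0.07 with an adjusted p of 0.000191. The other small subunit genes that rose were Mrps10, Mrps5, Mrps12, Mrps27 and Mrps2, with log2 fold changes of 0.17 to 0.33.

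In the large subunit, the stalk gene Mrpl10 had the smallest p. It lay at 34.3, 42.5 and 48.4 CPM in Ctr BSA and at 45.2, 51.1 and 54.9 CPM in Ctr PA, so the groups overlapped only across batches. Its log2 fold change was 0.26 ± 0.05 with an adjusted p of 0.000369, and it was 0.29 in batch 1 and 0.22 in batch 2.

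Mrpl48, a mitochondrion-specific large subunit gene, lay at 16.7, 20.2 and 21.4 CPM in Ctr BSA and at 21.5, 23.4 and 27.2 CPM in Ctr PA, just without overlap. Its log2 fold change was 0.29 ± 0.06 with an adjusted p of 0.00132. Mrpl24, of the bacterial L24 family, rose by 0.23 ± 0.06 on the log2 scale with an adjusted p of 0.00262. Mrpl57 had the largest log2 fold change of the large subunit genes, 0.35 ± 0.09, with an adjusted p of 0.00585.

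Mrpl50 rose by 0.26 ± 0.07 on the log2 scale, from 24.2, 28 and 31 CPM in Ctr BSA to 29, 31.7 and 43.4 CPM in Ctr PA. The highest value came from S23, and without S1 and S23 the log2 fold change was 0.19 with an adjusted p of 0.0152. Mrpl23, Mrpl36, Mrpl42, Mrpl19, Mrpl51, Mrpl58, Mrpl17 and Mrpl54 also rose, with log2 fold changes of 0.18 to 0.32. Mrpl36 had a log2 fold change of 0.08 in batch 1 and 0.45 in batch 2. Mrpl54 went from 0.32 ± 0.12 to 0.51 without S1 and S23. Mrpl58 (ICT1) is a peptidyl-tRNA hydrolase that became part of the ribosome.

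**Figure D2:**
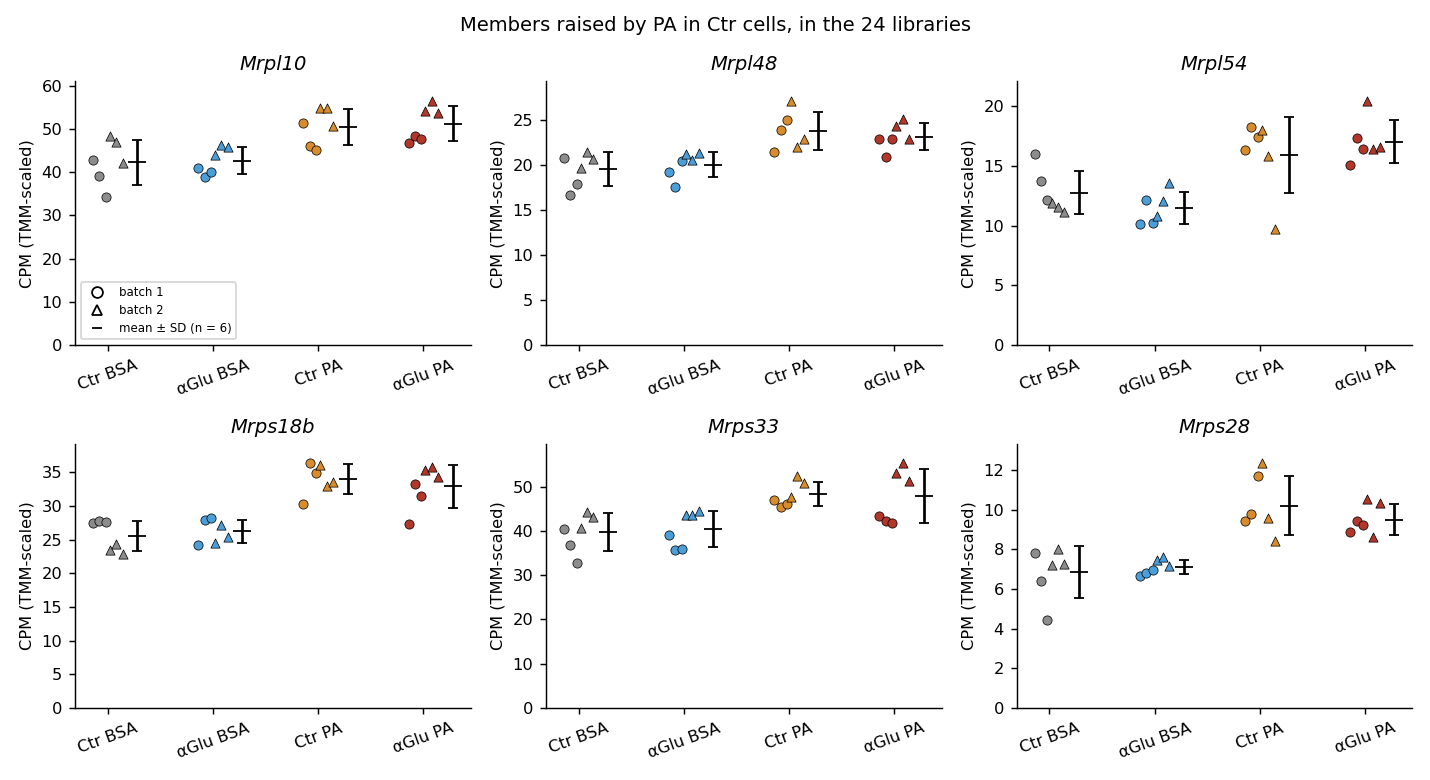
CPM with TMM scaling in each library for 6 genes that rose with PA in Ctr cells, by group. Circles are batch 1, triangles batch 2, and bars the mean ± SD of 6 libraries. The Mrps28 libraries of Ctr PA start at 8.41, above the highest Ctr BSA library at 8.04, whereas S23 places 1 Mrpl54 value of Ctr PA at 9.70.

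No member fell in Ctr cells at the threshold. The lowest log2 fold change of the small subunit was that of Mrps26, -0.22 ± 0.14, and the lowest of the large subunit that of Mrpl22, -0.14 ± 0.11. Without S23 the value of Mrps26 was -0.11 ± 0.11 and that of Mrpl22 -0.10 ± 0.11. Mrpl20, Mrpl53 and Mrps35 are named by the study for αGlu inhibition under PA, not for PA against BSA. Their log2 fold changes of PA against BSA in Ctr cells were 0.12, 0.01 and -0.12, with adjusted p values of 0.397, 0.977 and 0.332. Without S23 they were 0.20, 0.09 and -0.04, none at the threshold.

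By origin, 6 of 30 large subunit genes with a bacterial homologue (20%, median log2 fold change 0.12) rose in Ctr cells. So did 7 of 21 mitochondrion-specific ones (33.3%, median 0.08), beside 15.5% of all genes. In the small subunit, 6 of 16 genes with a bacterial homologue rose (median log2 fold change 0.11), as did 3 of 10 mitochondrion-specific ones (median -0.01). The mitochondrion-specific lists include Mrps18b (small subunit) and Mrps18a (large subunit), although both are branches of the bacterial S18 family. These assignments count Mrps30 and Mrps18a with the large subunit, where their proteins sit despite the symbol, and leave out Mrps36, whose product is a component of the 2-oxoglutarate dehydrogenase complex. Mrps30 had a log2 fold change of -0.07 ± 0.08, Mrps18a of 0.08 ± 0.09 and Mrps36 of 0.13 ± 0.07 in Ctr cells, none at the threshold.

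In αGlu cells, 15 large subunit genes rose with PA and 1 fell, and 7 small subunit genes rose and 0 fell. The share called over all genes was 14.4% raised and 14.2% lowered. The median log2 fold changes were 0.16, with 41 of 49 positive, and 0.14, with 23 of 29 positive, beside 0.01 over all genes, of which 50.9% were positive. Changes above 2-fold were again reached by 0 members and by 5.57% of all genes. The groups did not overlap in the raised direction for 7 large and 2 small subunit genes, and 4.17% of all genes met that criterion. Without S20, 9 large subunit genes rose.

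The 2 comparisons have no library in common, though they come from a single fit and, by the study's statement, share animals or passages. Of the 22 members that rose in Ctr cells and the 22 that rose in αGlu cells, 16 were the same, 72.7% of each list. Over all genes the shared calls were 69% of those raised in Ctr and 74.3% of those raised in αGlu cells. The shared members were Mrpl10, Mrpl17, Mrpl23, Mrpl24, Mrpl36, Mrpl42, Mrpl48, Mrpl51, Mrpl54, Mrpl57, Mrps10, Mrps12, Mrps14, Mrps18b, Mrps28 and Mrps33.

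Mrpl10 lay at 38.9, 42.4 and 46.3 CPM in αGlu BSA and at 46.9, 51.1 and 56.6 CPM in αGlu PA, without overlap. Its log2 fold change was 0.26 ± 0.05, with an adjusted p of 0.00031. Mrpl54, a mitochondrion-specific gene, had the largest change, with 10.1, 11.4 and 13.6 CPM in αGlu BSA and 15.1, 16.5 and 20.5 CPM in αGlu PA. All αGlu PA libraries were above all αGlu BSA libraries for this gene. The log2 fold change was 0.57 ± 0.12, a fold of 1.48, with an adjusted p of 0.00106.

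Mrpl23, at the exit of the peptide tunnel, lay at 14.2, 15.3 and 17.3 CPM in αGlu BSA and at 17.6, 20.4 and 24.4 CPM in αGlu PA. The groups came close but did not overlap, with a log2 fold change of 0.43 ± 0.09 and an adjusted p of 0.000637. Mrpl11, another stalk-base gene, rose by 0.33 ± 0.11 with an adjusted p of 0.0277, and Mrpl20 by 0.29 ± 0.10 with an adjusted p of 0.0268. Mrpl12, the stalk protein that also binds the mitochondrial RNA polymerase, did not pass, although its αGlu groups did not overlap (15.3 to 17.2 CPM in αGlu BSA and 17.3 to 21.8 CPM in αGlu PA).

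In the small subunit, Mrps14, Mrps33, Mrps18b, Mrps10, Mrps28, Mrps12 and Mrps21 rose in αGlu cells, with log2 fold changes of 0.24 to 0.42. Mrps28 lay at 6.66, 7.06 and 7.62 CPM in αGlu BSA and at 8.64, 9.34 and 10.5 CPM in αGlu PA. The groups were apart again, and the log2 fold change was 0.42 ± 0.11 with an adjusted p of 0.006.

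Mrpl49 was the single member that fell. It lay at 16.7, 19.5 and 22 CPM in αGlu BSA and at 12, 16.6 and 19 CPM in αGlu PA, with overlap. Its log2 fold change was -0.24 ± 0.08 with an adjusted p of 0.0283, and the call was lost without S10, S12 or S18. In Ctr cells its log2 fold change was -0.01.

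**Figure D3:**
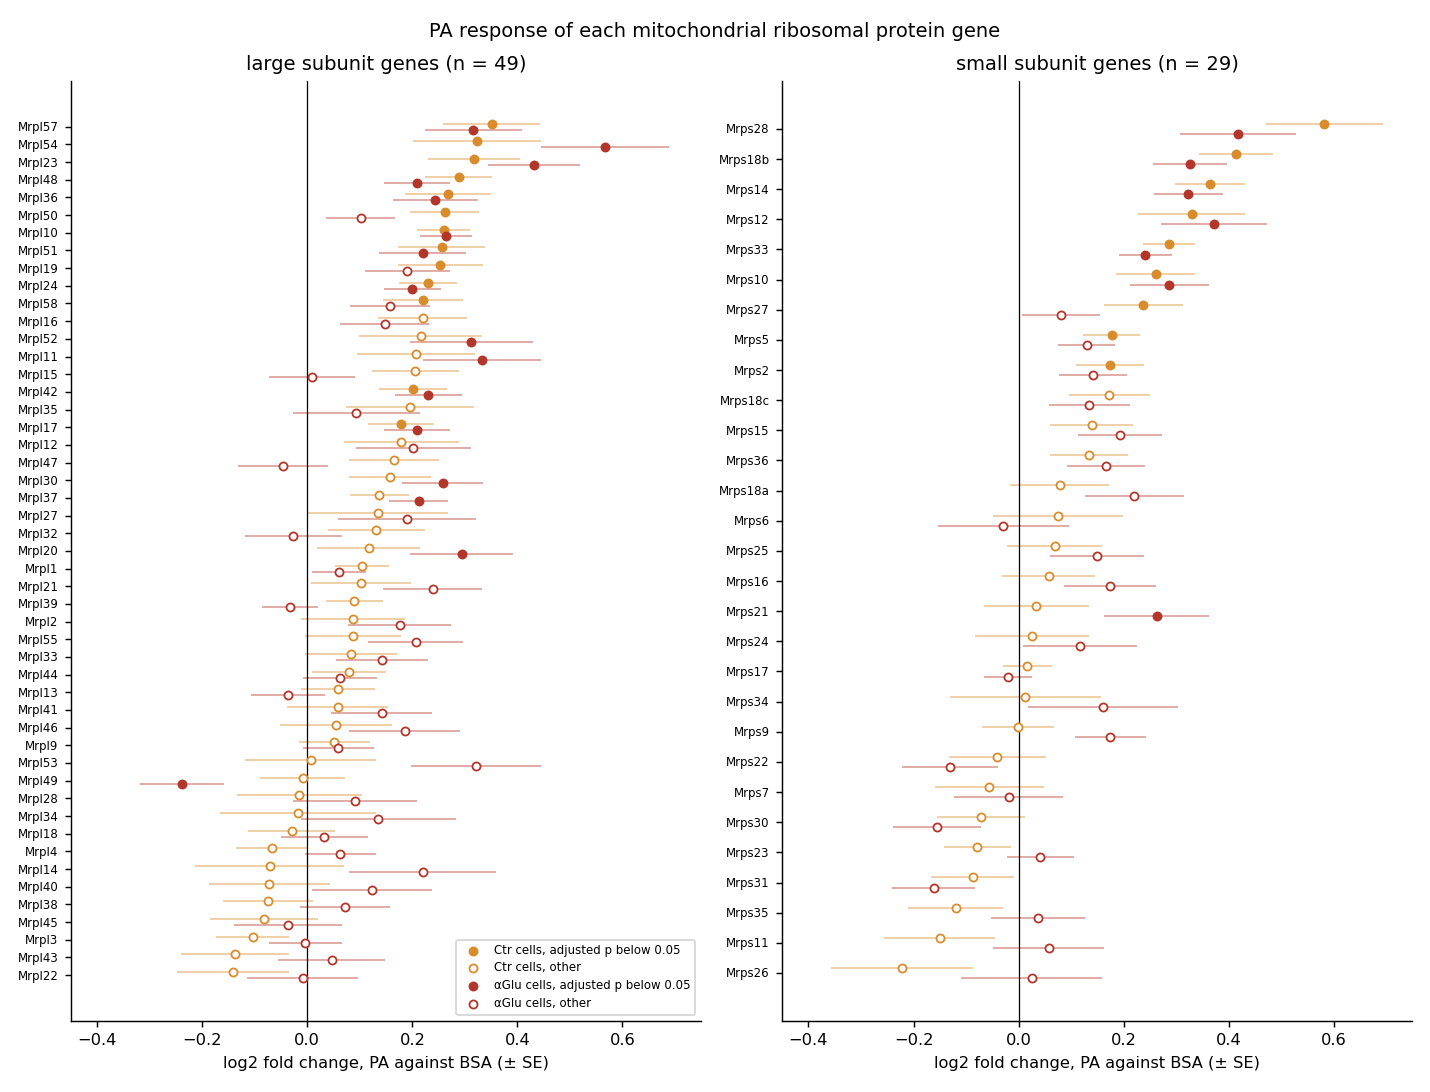
Log2 fold change of PA against BSA for each gene, ordered by its value in Ctr cells, with bars of 1 SE. Filled points have an adjusted p below 0.05, in orange for Ctr and in red for αGlu cells. The values run from -0.22 to 0.58 in Ctr cells and from -0.24 to 0.57 in αGlu cells.

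The sign of the PA response was compared between batches. In Ctr cells 31 of 49 large and 14 of 29 small subunit genes were higher with PA in both batches, and 7 and 6 were lower in both, beside 39.2% of all genes higher and 37.4% lower in both. In αGlu cells 38 and 20 were higher and 4 and 3 lower in both, beside 40.2% and 38.4% of all genes. With 3 libraries per group in a batch, fewer genes passed. In Ctr cells 2 large and 3 small subunit genes rose in batch 1 alone and 2 and 5 in batch 2 alone, and in αGlu cells 1 and 0 rose in batch 1 and 4 and 3 in batch 2. Of all genes, 6.63% and 5.91% were called raised in batches 1 and 2 in Ctr cells and 5.09% and 5.87% in αGlu cells. The PA response, averaged over both ASOs, differed between batches for 0 members at an adjusted p below 0.05, beside 0.0314% of all genes higher and 0.0251% lower. At an unadjusted p below 0.05, 4 members were higher and 0 lower, beside 2.11% and 4.07% of all genes. The smallest p was that of Mrpl3, a core large subunit gene, with a difference of 0.27 ± 0.09 (batch 2 minus batch 1) and an adjusted p of 0.501.

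The mean log2 CPM over the large subunit genes was 4.09 ± 0.10 (SD, n = 6) in Ctr BSA, 4.08 ± 0.03 in αGlu BSA, 4.20 ± 0.11 in Ctr PA and 4.23 ± 0.06 in αGlu PA. The lowest αGlu PA library, at 4.15, lay above the highest αGlu BSA library, at 4.14, whereas the Ctr groups overlapped through S1 and S23. Small subunit means were 4.06 ± 0.07, 4.04 ± 0.02, 4.15 ± 0.10 and 4.17 ± 0.06 in the same order. The αGlu libraries were again just apart, at 4.02 to 4.08 in αGlu BSA and 4.08 to 4.22 in αGlu PA.

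**Figure D4:**
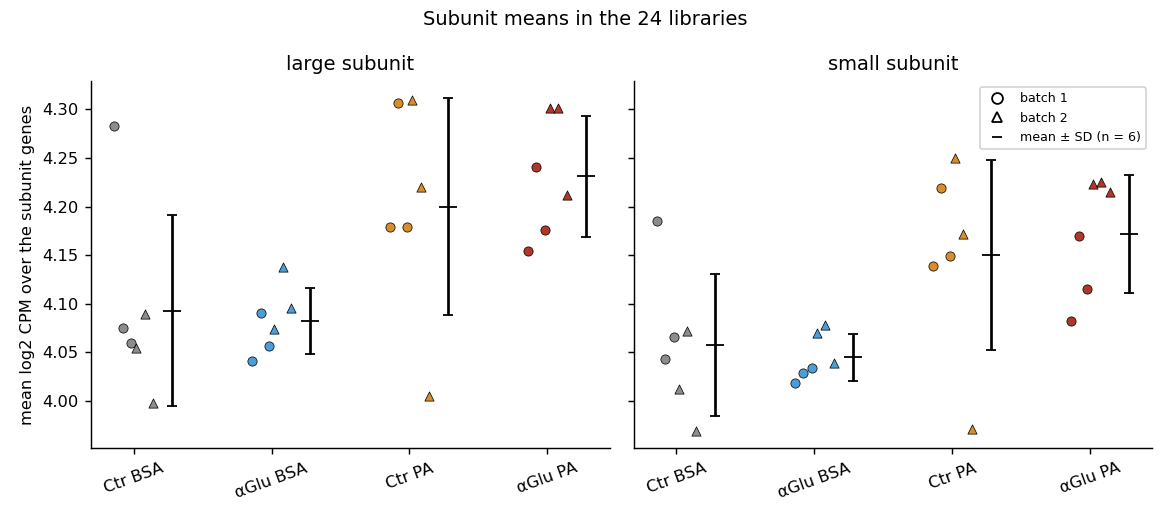
Mean log2 CPM over the large subunit genes (left) and the small subunit genes (right) in each of the 24 libraries, with circles for batch 1, triangles for batch 2 and bars for the mean ± SD of 6 libraries. The vertical axis does not start at 0. The Ctr BSA library at 4.28 is S1 and the Ctr PA library at 4.0 is S23.

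The αGlu ASO moved no member at the threshold. With edgeR, 0 of 78 genes differed between αGlu and Ctr in BSA or in PA, where 0% of all genes were called in either direction. Averaged over BSA and PA, 0 members were called, beside 0.0565% of all genes raised and 0.182% lowered. DESeq2 also called 0 members in each of these comparisons. At an unadjusted p below 0.05, 0 members were higher and 1 lower in BSA, beside 1.14% and 1.76% of all genes. In PA 1 was higher and 1 lower, beside 1.02% and 2.36%. In the average 1 was higher and 0 lower, beside 1.34% and 2.55%.

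The median log2 fold changes of αGlu against Ctr were -0.02 in both subunits in BSA, and 0.01 in the large and -0.01 in the small subunit in PA. Single members ran from -0.15 to 0.15 in BSA and from -0.18 to 0.37 in PA, with a median SE of 0.09 in both. These medians had no stable sign. Without S1 and S23 they were 0.03 and 0.02 in BSA and -0.02 and -0.02 in PA, and without S1 alone 0.03 and 0.02 in BSA. The choice of these libraries favours higher values in BSA and lower ones in PA. The signs also differed between batches. In BSA, 15 of 49 large and 4 of 29 small subunit genes were higher with αGlu in batch 1, and 35 and 20 in batch 2. In PA these numbers were 17 and 12 in batch 1, and 40 and 19 in batch 2. Mrpl14, of the bacterial L14 family, had the largest value in PA, 0.37 ± 0.14. It lay at 5.05, 7.81 and 10.1 CPM in Ctr PA and at 9.13, 10.4 and 11.7 CPM in αGlu PA, with overlap and an adjusted p of 0.993. Mrpl4 was the lower gene in BSA, at -0.15 ± 0.07, and Mrpl39 the lower gene in PA, at -0.12 ± 0.05. The study lists Mrpl20, Mrpl53 and Mrps35 among genes whose protein fell with αGlu inhibition under PA while the transcript was higher or unchanged. Their mRNA values in PA were 0.14 ± 0.10, 0.22 ± 0.12 and 0.12 ± 0.09, each with an adjusted p of 0.993. Library S23 was the lowest of the Ctr PA libraries for each of these genes, at 14.8, 8.20 and 9.38 CPM. A low Ctr PA library favours higher values of αGlu against Ctr, and these values are not given here without S23. Protein is not measured in these libraries.

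The difference of the PA response between αGlu and Ctr cells was called for 0 members and for 0% of all genes in either direction, and 0 members had an unadjusted p below 0.05, beside 1.06% of all genes higher and 1.03% lower. DESeq2 called 0 as well. The SE of this difference had a median of 0.12 over the members, so that differences of the size of most PA responses here could not be told from the spread. The highest values were those of Mrpl53, 0.31 ± 0.18, and Mrpl14, 0.29 ± 0.20, which were 0.13 and 0.07 without S1 and S23. The lowest was that of Mrpl49, -0.23 ± 0.11. The medians were 0.06 in the large and 0.03 in the small subunit. Both turned to -0.05 without S1 and S23, a direction that the choice of these libraries favours.

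**Figure D5:**
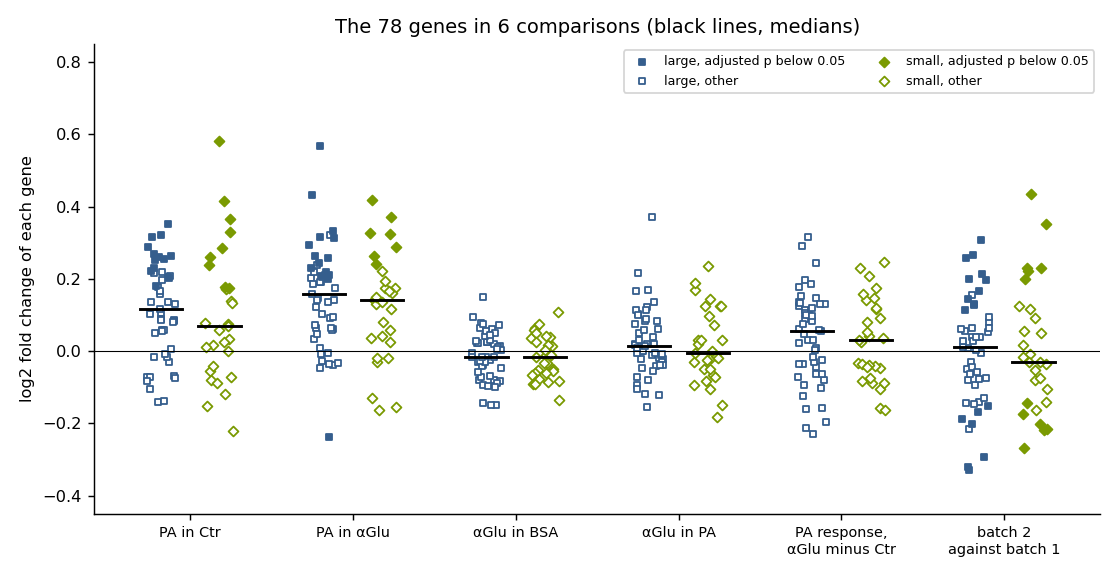
Log2 fold change of each of the 78 genes in 6 comparisons, squares for the large and diamonds for the small subunit, filled at an adjusted p below 0.05, with black lines at the medians. Filled symbols stand in both PA comparisons and between batches, and none in the αGlu comparisons or the difference of responses.

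Between batches the members went both ways. In batch 2 against batch 1, 10 large subunit genes were higher and 7 lower, and 6 small subunit genes were higher and 6 lower, beside 26.1% higher and 25.4% lower over all genes. Above 2-fold lay 0 members and 6.38% of all genes. With library totals in place of TMM, 6 large subunit genes were higher and 12 lower. Mrps14 was higher by 0.35 ± 0.05 on the log2 scale with an adjusted p of 7.75e-07. Its Ctr BSA libraries averaged 14.7 ± 1.13 CPM in batch 1 and 18.3 ± 2.80 CPM in batch 2 (SD, n = 3). Mrpl42 was higher by 0.31 ± 0.05 and Mrpl50 by 0.26 ± 0.05. Mrpl43 had a log2 difference of -0.33 ± 0.07 and Mrpl45, which anchors the ribosome at the inner membrane, one of -0.32 ± 0.07. In Ctr BSA, Mrpl43 averaged 20.5 ± 1.92 CPM in batch 1 and 14.6 ± 1.30 CPM in batch 2.

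Other genes of mitochondrial translation were counted from lists written for this purpose, with calls as above. Over all genes 15.5% rose in Ctr and 14.4% in αGlu cells, and several of these lists lay near or below those shares. Among 18 translation factors and mRNA stability genes, 8 rose and 0 fell in Ctr cells and 3 rose and 0 fell in αGlu cells. Mrrf, the factor that recycles ribosomes, rose by 0.36 ± 0.07 in both, and Lrpprc, which stabilizes mitochondrial mRNAs, by 0.23 ± 0.04 in Ctr cells. Mtif3, which the study names for a lower protein with αGlu under PA, had a log2 fold change of -0.11 ± 0.10 in Ctr cells. Among 28 genes of ribosome assembly and rRNA modification, 7 rose and 0 fell in Ctr cells and 4 rose (14.3%) and 1 fell in αGlu cells. Ngrn rose by 0.35 ± 0.06 in Ctr and 0.32 ± 0.06 in αGlu cells. Rpusd4 and Mrm3, named by the study like Mtif3 for lower proteins with αGlu under PA, did not pass in either.

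Of 20 mitochondrial aminoacyl-tRNA synthetase genes and subunits of the glutamyl-tRNA amidotransferase, 5 rose and 3 fell in Ctr cells and 7 rose and 2 fell in αGlu cells. Sars2, the head-to-head neighbour of Mrps12, rose by 0.52 ± 0.14 in Ctr cells, where Mrps12 rose by 0.33 ± 0.10. Of 16 tRNA processing genes, 3 rose and 1 fell in Ctr and 1 rose and 0 fell in αGlu cells. Of 16 genes of mitochondrial genome expression, 3 rose and 1 fell in Ctr cells and 2 rose and 0 fell in αGlu cells, among them the protease gene Lonp1, by 0.72 ± 0.08 and 0.74 ± 0.08. Of 5 mitoribosome proteins with other symbols, Chchd1 rose by 0.26 ± 0.08 in Ctr and 0.29 ± 0.08 in αGlu cells, and Ptcd3 fell by 0.25 on the log2 scale in αGlu cells.

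Of 9 regulators of mitochondrial genes, 2 rose and 2 fell in both PA comparisons. Ppargc1a, a coactivator of NRF1 and other factors, went from 2.76 to 4.95 CPM (lowest to highest) in Ctr BSA to 5.36 to 9.31 CPM in Ctr PA, without overlap. It rose by 0.93 ± 0.17 on the log2 scale in Ctr and 0.80 ± 0.17 in αGlu cells. Yy1 fell by 0.20 and Gabpb1, the partner of GABPA, by 0.33 on the log2 scale in Ctr cells. Without S1 and S23, 1 of the 9 rose and 2 fell in Ctr cells.

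The values of the mitochondrially encoded RNAs changed with S1 and S23. Of the 13 mitochondrial mRNAs, 4 rose with PA in Ctr cells and 0 in αGlu cells, with median log2 fold changes of 0.30 and 0.06, and without S1 and S23 0 rose in Ctr cells, with a median of 0.02. The rRNAs mt-Rnr1 and mt-Rnr2 had log2 fold changes of -0.87 ± 0.30 and -0.92 ± 0.31 in Ctr cells, both called. In αGlu cells they were -0.28 ± 0.29 and -0.27 ± 0.30, neither called. In S1 they lay at 1705 and 3831 CPM, against 235 to 422 and 525 to 966 CPM in the other 5 Ctr BSA libraries. Without S1 and S23 they fell by 0.33 and 0.34 on the log2 scale in Ctr cells and by 0.28 and 0.27 in αGlu cells, with adjusted p values of 0.0139 to 0.0268, the αGlu libraries being the same in both fits. The kit selects mRNA, so these rRNAs were recovered in part.

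Genes of other machines behaved as follows under PA. Of 96 cytosolic ribosomal protein genes, 10 rose (10.4%) and 2 fell in Ctr and 32 rose (33.3%) and 2 fell in αGlu cells. Of 90 nuclear genes for oxidative phosphorylation subunits, 22 rose (24.4%) and 0 fell in Ctr and 34 rose (37.8%) and 0 fell in αGlu cells. Their median log2 fold changes were 0.12 and 0.23, and 0.13 and 0.18. For the difference of the PA response between αGlu and Ctr cells, 0 genes of either list were called. These 2 lists were not counted without S1 and S23. Differences between them and the mitochondrial ribosome were not tested.

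The cells in these libraries were mixed, and fewer cells of a type cannot be told from less RNA per cell. All 6 beta-cell markers were present, with summed levels of 86341 to 133553 CPM in Ctr BSA and 83279 to 130623 CPM in Ctr PA and medians of 131447 and 98151 CPM. With PA, 3 of them rose and 3 fell in Ctr cells, and 3 rose and 2 fell in αGlu cells. Of 6 alpha, delta and PP cell markers, 2 fell in Ctr and 1 in αGlu cells, and of 5 ductal markers 2 fell in both. Of 6 fibroblast and stellate markers, 5 fell with PA in Ctr and 3 in αGlu cells, from summed levels of 67.2 to 416 CPM in Ctr BSA to 6.89 to 42.5 CPM in Ctr PA. Of 6 acinar markers, 4 fell in Ctr and 3 in αGlu cells, from 350 to 16819 CPM to 183 to 7256 CPM in Ctr cells. Of 6 macrophage markers, 3 fell in Ctr and 1 in αGlu cells, from 80.6 to 331 CPM to 84.6 to 128 CPM in Ctr cells. Of 5 endothelial markers and of 5 glia and Schwann markers, 0 rose and 0 fell in Ctr or αGlu cells. No marker was at 0 throughout a group, and the part of these shifts in the members' values was not tested.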

How the data were processed

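The mRNA of dispersed mouse islet cells was sequenced with a stranded kit. Reads were processed by the authors in QIAGEN's RNA-seq Analysis Portal, and the submitters' processing notes name GRCm38 as the build. Neither aligner nor annotation is given in the sources used here. Their deposited table holds, per gene and library, raw counts of reads on exons (empty cells read as 0), RPKM, TPM, and a CPM signal. In the deposited values TPM gave levels between genes, RPKM an alternative, and the authors' CPM signal only their scaling factors.

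Counts were fitted with edgeR 4.0.16 and limma 3.58.1 in R 4.3.3 (TMM, filterByExpr with a minimum count of 10, quasi-likelihood F test, 24 libraries, groups and batch as terms). P-values were Benjamini-Hochberg adjusted over 15916 genes and called below 0.05. SEs were derived from the F statistic, and log2 CPM used a prior count of 2. The fit was run on simulated counts drawn from its own mean levels and spread, without batch differences or shared animals. How often it calls changes as small as those of the members is not given here. Counting error alone would understate the spread, so the spread between libraries was estimated in the fit (common biological coefficient of variation 15.4%). Reads carried no molecular identifiers. Lists of genes were described by counts and medians. Members and lists were chosen with earlier results of these data known. Members were named by these rules: up to 5 per subunit and direction of smallest p in each PA comparison, 2 in the others, the 3 highest and lowest levels, and genes the study names or whose symbol and place differ. Genes listed beyond these are all calls of a comparison or were chosen after their values were seen. Alternatives were DESeq2 1.42.0, upper-quartile, total and authors' scaling, no filter on low counts, one of 10 counts in at least 12 libraries, a fit with batch left out, the compared groups alone, each batch alone, the study's fold threshold of 2, another subunit assignment, RPKM, omission of each library, and omission of S1 and S23. The table had 1 line without a gene, with 0 counts.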

Additional observations from a re-analysis of the deposited data

Results flagged for a closer look

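The values of 46 named genes and of both subunit means were examined for a library far from the other 5 of its group, and 10 of 192 groups of 6 held one, where chance gives about 1 in 20. Library S23 accounted for 4 of these in Ctr PA. It was highest for Mrpl50, at 43.4 CPM against 29 to 34.1 CPM in the others, and lowest for Mrpl54, at 9.70 CPM, for Mrps26, at 7.77 CPM, and for Mrpl53, at 8.20 CPM. Library S1 accounted for 4 in Ctr BSA, as the highest for Mrpl36, at 21.7 CPM, for Mrpl2, at 26.7 CPM, for Mrpl20, at 24.4 CPM, and for the mean of the large subunit genes, at 4.28 log2 CPM. In αGlu PA, S20 was highest for Mrpl47, at 12.9 CPM against 10.2 to 11.2 CPM in the others. In αGlu BSA, S10 was lowest for Mrps11, at 8.71 CPM against 10.3 to 11 CPM in the others.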

How the results depend on the processing

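The study states that the groups of a replicate share an animal or passage. The labels number each library once and do not say which libraries these are. No paired fit was therefore made, and its effect on the PA and αGlu comparisons was not tested. With 1 library omitted at a time, the large subunit genes that rose in Ctr cells numbered 10 to 15 and the small subunit genes 8 to 10. In αGlu cells these were 9 to 16 and 6 to 9, with 9 without S20, and the large subunit genes that fell numbered 0 to 1. Without a batch term, 5 large subunit genes rose in Ctr cells, and 5 large and 3 small subunit genes in αGlu cells. With the compared groups alone, 11 small subunit genes rose in αGlu cells. In batch 1 alone 2 large and 3 small subunit genes rose in Ctr cells, and 1 and 0 in αGlu cells. In batch 2 alone these were 2 and 5, and 4 and 3. The lowered call of Mrpl49 was lost in each batch alone, without a batch term and without the filter, which left 0. Without S1 and S23, 20 large subunit genes rose in Ctr cells, and the medians of the difference of responses were -0.047 and -0.046 in place of 0.06 and 0.03. The choice of these libraries favours both shifts. At the study's threshold of a 2-fold change, 0 members passed in either PA comparison or between batches. Between batches, library totals gave 6 higher and 12 lower large subunit genes. In batch 2 alone the small subunit median of αGlu against Ctr in PA was 0.072. The αGlu medians took either sign, from -0.091 (batch 1 alone) to 0.040 (batch 2 alone) for the large subunit in BSA and from -0.038 to 0.057 in PA, and turned in 5 of 36 alternatives each. For the small subunit they turned in 4 and 7 of 36. Turned in sign among single genes were αGlu values of uncalled genes, namely Mrps22 at -0.0073 and Mrps27 at -0.013 in BSA and Mrps26 at -0.028 on average (batch 1 alone), and Mrpl49 at 0.017 and Mrps6 at 0.031 in PA (batch 2 alone). The cause was not tested, apart from the fewer libraries of a single batch. DESeq2, upper-quartile and the authors' scaling and the stricter filter changed no call or count beyond 1.5 times. By RPKM the ratios of highest to lowest level were 11.2 and 24.3, and 2 members swapped rank. RPKM divides by the same gene lengths as TPM, so it could not check these ratios.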
